A study of Mus musculus with 2 samples.

Results

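The genes described here encode interleukins, CC and CXC chemokines, TNF superfamily ligands and receptors of these families. They were taken by symbol, as the autosomal protein-coding genes of GENCODE vM21 whose names begin with Il, Ccl, Cxcl, Ccr or Cxcr and a number, or with Tnfsf or Tnfrsf, without Il6st. The rule found 159 genes among 20807 autosomal protein-coding genes, and it used no measured value. By symbol, 86 of them fell into the 4 ligand groups and 73 into the 4 receptor groups. Family genes with other symbols, such as Tnf, Fasl, Fas and Cd27, were left out. Symbols do not always follow function, since Il4i1, an amino acid oxidase, counts here as an interleukin ligand, and the decoys and antagonists Il18bp and Il1rn count with the interleukin receptors.

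Genomic DNA came from E14 mouse embryonic stem cells (mESCs), an established pluripotent line, grown on gelatin in medium with serum and LIF. Both libraries, replicate 1 and replicate 2, came from untreated cells of this line at different passages, so there was 1 condition and no control group. In SCoTCH-seq the strands of a fragment stay joined by a hairpin, and each read pair gives, for a CpG site, whether the cytosine of either strand is unmodified (C), methylated (M) or hydroxymethylated (H). The 9 CpG states were grouped here as CC, MC/CM, MM, HC/CH, HM/MH and HH. On the autosomes, replicate 1 held 13366464 CpG sites with a median of 10 calls each, and replicate 2 held 4882356 sites with a median of 6. A call is the state of 1 site in 1 read pair, so a read pair that covers several CpGs gives a call at each of them. Every deposited site had at least 5 calls, and no RNA or protein was measured.

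Interleukins and chemokines are secreted signals through which immune cells, and the tissues around them, call up growth, differentiation, migration and inflammation. TNF superfamily ligands are mostly membrane-bound trimers, and their receptors control cell survival, death and NF-κB signaling. Many of these genes are silent outside the immune cell types or stimuli that use them, although some, such as Cxcl12 and Cxcr4, act in embryonic cell migration. In mammalian DNA most CpGs carry methyl groups on both strands, while CpG-dense promoters usually carry none. Hydroxymethylcytosine is made from methylcytosine by the TET enzymes, which are active in mESCs.

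The sequences below are the 250 bases upstream of the RefSeq start site of 7 members, read from GRCm38.p6 and printed 5′ to 3′ on the strand of the gene, with every CpG in capitals. They are shown because they span the range over which the promoters differed in modification: 3 CpG-dense promoters, 2 neighboring chemokine promoters, and 2 CpG-sparse promoters of T-cell interleukins.
Tnfrsf12a, chr17:23677450-23677699, minus strand: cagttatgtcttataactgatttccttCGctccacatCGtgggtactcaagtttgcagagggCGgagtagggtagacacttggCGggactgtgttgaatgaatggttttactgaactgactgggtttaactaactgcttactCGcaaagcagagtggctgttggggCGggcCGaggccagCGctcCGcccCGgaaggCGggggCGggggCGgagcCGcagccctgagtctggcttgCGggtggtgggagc
Tnfrsf21, chr17:43016305-43016554, plus strand: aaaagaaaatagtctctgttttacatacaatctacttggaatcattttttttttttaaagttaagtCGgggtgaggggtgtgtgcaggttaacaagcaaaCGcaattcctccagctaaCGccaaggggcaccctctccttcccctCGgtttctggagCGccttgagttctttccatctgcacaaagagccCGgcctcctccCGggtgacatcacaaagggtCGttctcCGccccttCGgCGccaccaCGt
Cxcl12, chr6:117168285-117168534, plus strand: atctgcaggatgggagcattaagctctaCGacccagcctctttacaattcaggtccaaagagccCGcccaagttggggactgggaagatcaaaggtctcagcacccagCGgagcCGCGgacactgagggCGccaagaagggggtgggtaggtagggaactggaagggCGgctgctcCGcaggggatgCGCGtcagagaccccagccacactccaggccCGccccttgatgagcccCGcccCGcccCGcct
Cxcl10, chr5:92348890-92349139, minus strand: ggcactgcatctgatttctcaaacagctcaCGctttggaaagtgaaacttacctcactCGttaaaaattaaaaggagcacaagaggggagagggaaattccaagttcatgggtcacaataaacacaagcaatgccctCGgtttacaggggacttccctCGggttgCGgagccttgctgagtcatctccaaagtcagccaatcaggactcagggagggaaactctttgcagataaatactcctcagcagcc
Cxcl9, chr5:92328080-92328329, minus strand: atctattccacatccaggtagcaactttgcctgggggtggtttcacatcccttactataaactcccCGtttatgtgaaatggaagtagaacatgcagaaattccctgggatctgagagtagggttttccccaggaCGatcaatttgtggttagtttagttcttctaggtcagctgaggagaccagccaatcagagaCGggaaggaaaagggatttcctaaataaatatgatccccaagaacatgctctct
Il17a, chr1:20730655-20730904, plus strand: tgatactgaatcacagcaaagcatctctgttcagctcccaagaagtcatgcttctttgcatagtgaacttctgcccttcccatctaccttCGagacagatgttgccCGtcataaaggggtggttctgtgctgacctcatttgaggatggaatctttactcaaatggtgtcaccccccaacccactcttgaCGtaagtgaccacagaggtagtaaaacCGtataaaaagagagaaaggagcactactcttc
Il2, chr3:37125955-37126204, minus strand: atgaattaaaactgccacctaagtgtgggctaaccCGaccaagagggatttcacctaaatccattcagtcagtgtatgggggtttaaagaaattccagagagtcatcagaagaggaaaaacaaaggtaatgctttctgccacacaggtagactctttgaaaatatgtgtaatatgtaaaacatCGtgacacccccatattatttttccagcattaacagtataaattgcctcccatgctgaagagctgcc

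The window of Tnfrsf12a, the receptor of the cytokine TWEAK, holds 15 CpGs, of which 5 were covered in replicate 1 and 4 in replicate 2. All 43 calls at these sites in replicate 1 were CC, as were all 25 calls in replicate 2. The exact Clopper-Pearson 95% intervals of these CC shares were 91.8% to 100% and 86.3% to 100%, and they cover counting error only. These and all later intervals and limits treat calls as independent, and they are too narrow where neighboring sites share read pairs. The window of Tnfrsf21, a death-domain receptor, holds 12 CpGs, and 28 of 28 calls at 4 sites and 6 of 6 calls at 1 site were CC. The window of Cxcl12, the chemokine that guides migrating germ cells and blood progenitors, holds 14 CpGs, with 26 of 30 calls CC at 5 sites in replicate 1 and 7 of 7 at 1 site in replicate 2. CpG-sparse windows held other states.

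The window of Il2, the T-cell growth factor, holds only 2 CpGs, both covered, and 9 of 18 calls in replicate 1 and 9 of 11 in replicate 2 were MM. That of Il17a, the signature cytokine of Th17 cells, holds 4 CpGs, and 17 of 28 calls at 3 sites and 8 of 12 calls at 2 sites were MM. The neighbors Cxcl9 and Cxcl10 both encode interferon-induced ligands of the receptor Cxcr3. In the Cxcl9 window, which holds 3 CpGs, MM made up 14 of 25 calls at 2 sites and 4 of 7 calls at 1 site, and in the Cxcl10 window, which holds 5 CpGs, it made up 5 of 38 calls at 5 sites and 5 of 21 calls at 3 sites. CC made up 30 of 38 calls (79.0%, interval 62.7% to 90.4%) and 11 of 21 calls (52.4%, interval 29.8% to 74.3%) in the Cxcl10 window. The corresponding CC shares in the Cxcl9 window were 16.0% (interval 4.54% to 36.1%) and 14.3% (interval 0.361% to 57.9%), and no test was made between these neighbors.

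Levels in the following are means over covered CpG sites of the percentage of calls in a state, given for replicate 1 and then replicate 2. A promoter is the stretch within 1 kb of the transcription start site (TSS) of the gene, and the gene body is the rest of the gene. The TSS is the outermost start of the annotated gene, so other starts of the same gene were not used. A level was given where each replicate held at least 5 sites (promoter, exon) or at least 20 sites (intron, gene body). Of the 159 members, 104 had a promoter level and 88 had a gene body level, against 14907 and 14596 of all genes. Another 19 members had no level in any region, among them Ccl2, Ccl4, Il3 and Il5. No site at all was covered in Ccl19, Ccl21a, Ccl21b, Ccl27b and Il11ra2 on chromosome 4, in Ccr1l1, or in Il22. The genes on chromosome 4 belong to a duplicated stretch with near-identical copies, so the levels of their measured relatives Ccl27a and Il11ra1 are uncertain. Its part in the missing sites was not tested.

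The label of the cells was checked on promoters, since DNA was measured. The classes are those defined in the next paragraph. Of 10 pluripotency genes, 9 had mostly unmodified promoters (all genes 76.1%). Pou5f1 (98.5%, 100% CC) and Sox2 (99.8%, 100%) were among them, and Esrrb (27.1%, 15.2%) was not. Of 7 measured promoters of leukocyte genes, such as Ptprc and Cd4, 0 were mostly unmodified (all genes 76.1%) and 4 were mostly methylated (all genes 12.4%). All 3 measured promoters of fibroblast genes (Col1a1, Thy1, Pdgfra) were mostly unmodified (all genes 76.1%). Most promoters of any kind are unmodified, so the pluripotency and fibroblast counts tell little about the cell type. A promoter state does not show whether a gene is transcribed, so these values do not count cells of another type.

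Promoters of the family were spread over mostly unmodified, mostly methylated and intermediate ones. A promoter was called mostly unmodified where CC reached 50% in each replicate, which 43 of 104 members (41.3%) and 76.1% of all genes did. It was called mostly methylated where MM reached 50% in each replicate, which 30 members (28.8%) and 12.4% of all genes did. Another 31 members, and 1712 of 14907 of all genes, reached neither threshold. The median promoter CC level of the members was 46.7% and 34.3%, against 89.2% and 85.0% over all genes, and the median MM level was 32.6% and 42.0%, against 5.89% and 8.0%. The median of the members moved with the minimum of sites and the extent of the promoter. Over both replicates CC went from 40.5% to 74.7% with 2 times the minimum of sites, 75.2% with promoters of 500 bp either side, 23.9% without a minimum and 26.9% in the 2 kb upstream. In the same order MM went from 37.3% to 14.4%, 13.7%, 49.2% and 47.9%. The number of mostly methylated promoters became 8 of 43, 11 of 53 and 59 of 148 in the first 3 of these settings, and 9 of 104 at a threshold of 70%. At that threshold 30 of 104 were mostly unmodified, and the rest were neither. Median promoter HC/CH was 4.61% and 4.0% against 1.63% and 1.70% over all genes. These promoter classes and levels were described and not tested. The classes were uneven between ligands and receptors: 17 of 56 ligand promoters were mostly unmodified and 23 mostly methylated, against 26 and 7 of 48 receptor promoters. This did not hold in every group, as 6 of 9 TNF superfamily ligands were mostly unmodified and 3 of 5 CC receptors mostly methylated.

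**Figure D1:**
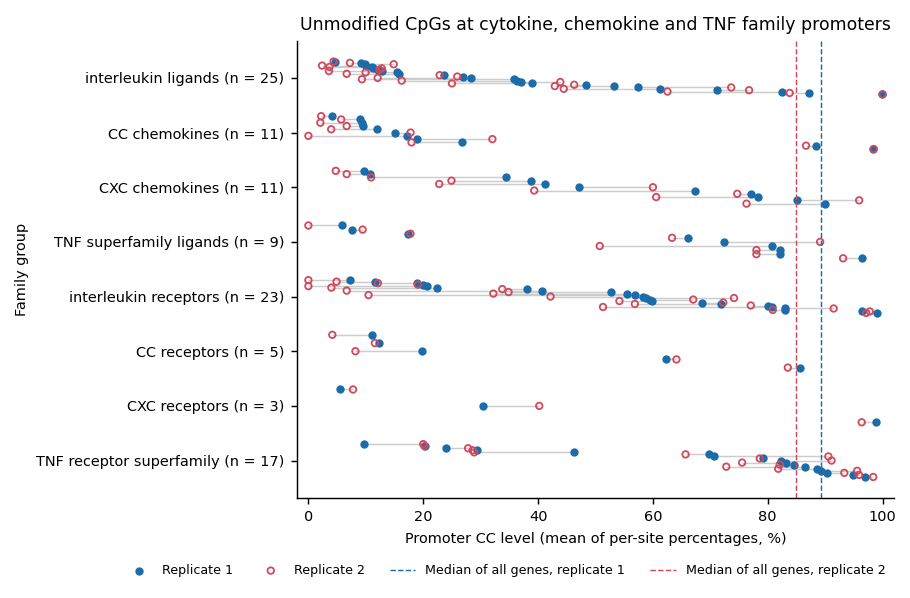
Promoter CC level (x axis, %) of the 104 members with a level, by family group (y axis). Each member has a filled point for replicate 1 and an open point for replicate 2, and the dashed lines mark the median of all genes (89.2% and 85.0%). Apart from Ccl25 and Ccl27a, the CC chemokines lie at or below 32.0%, while the TNF receptor superfamily reaches from 9.60% to 98.4%.

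Among the interleukin ligands, 5 of 25 measured promoters were mostly unmodified (all genes 76.1%) and 11 were mostly methylated (all genes 12.4%). The unmodified ones were Il4i1 (99.9%, 100% CC), Il17d (87.2%, 83.8%), the lymphocyte growth factors Il7 (82.6%, 62.5%) and Il15 (71.2%, 76.7%), and Il18 (57.4%, 73.6%), an inflammasome product. Il9, Il17a, Il4 and Il2 were among the mostly methylated ones. Promoter CC was 4.59% and 4.38% at Il9, 9.12% and 7.24% at Il17a, 10.1% and 2.38% at Il4, the cytokine of Th2 cells, and 15.7% and 6.67% at Il2. The anti-inflammatory Il10 stood at 15.5% and 9.96%. Il6 (61.2%, 44.5%) and Il12b (53.2%, 42.9%), both made by activated myeloid cells, passed 50% CC in replicate 1 but not in replicate 2. The promoters of Il1b and Il33 had too few sites in replicate 2.

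The CC chemokines had the largest share of mostly methylated promoters of the groups with more than 5 measured, 8 of 11 (all genes 12.4%). Ccl5, a chemokine of T cells and inflamed tissue, had the lowest promoter CC of the measured members by the higher of its replicates (4.07%, 2.22%), over 8 and 5 sites. Ccl1 (9.06%, 5.71%) and Ccl26 (9.39%, 2.08%) were close to it, and Ccl20, the ligand of Ccr6, was somewhat higher at 26.7% and 18.0%. The annotated gene of Ccl1 is long, with 899 body sites in replicate 1, so its outermost start may lie far from other starts. Only Ccl25 (98.4%, 98.4%), a chemokine of thymus and gut, and Ccl27a (88.3%, 86.7%) were mostly unmodified. The TSS of Ccl25 lies 203 bp from that of Elavl1, which encodes a ubiquitous RNA-binding protein, so the sites of this promoter belong to both genes.

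The CXC chemokines were spread over the range, with 4 of 11 promoters mostly unmodified (all genes 76.1%), 2 mostly methylated (all genes 12.4%) and 5 neither. Cxcl5 (85.1%, 95.9% CC), Cxcl12 (89.9%, 76.3%), Cxcl14 (77.1%, 74.7%) and Cxcl16 (78.2%, 60.6%) were unmodified. Cxcl1 (67.4%, 39.3%), a neutrophil attractant, passed 50% in replicate 1 alone, and its replicate 2 level rests on 5 sites. Over the full promoter, the neighbors of the windows above stood at 38.8% and 24.9% (Cxcl10) and at 9.67% and 4.77% (Cxcl9). Cxcl9 and Cxcl15 were mostly methylated.

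Of 9 measured TNF superfamily ligands with a Tnfsf symbol, 6 were mostly unmodified (66.7%, all genes 76.1%), with Tnfsf12 and Tnfsfm13 counted separately. Tnfsf9, the ligand of 4-1BB, stood at 96.5% and 93.1% CC, and Tnfsf11, which encodes the osteoclast factor RANKL, at 80.8% and 50.7%, just above the threshold. Tnfsf14 (7.61%, 9.44%) and Tnfsf18, the ligand of GITR (5.79%, 0%, over 21 and 5 sites), were mostly methylated, and Tnfsf15 (17.4%, 17.8%) was neither. The 0 CC calls among the 35 calls of Tnfsf18 in replicate 2 allow a share of up to 8.57%, with 3 counts as the limit. Tnfsf12 and Tnfsfm13, the annotated read-through gene, start 249 bp apart, drew on the same covered sites and so gave 1 value (82.1%, 78.0%). Tnfsf10, which encodes TRAIL, had no covered promoter site in either replicate.

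Of 17 measured TNF receptor superfamily genes with a Tnfrsf symbol, 12 were mostly unmodified (70.6%, all genes 76.1%) and 0 mostly methylated (all genes 12.4%). Tnfrsf21 (96.9%, 98.4% CC), Tnfrsf9 (94.8%, 95.9%), Tnfrsf12a (89.3%, 95.6%) and both TNF receptors, Tnfrsf1a (90.3%, 93.3%) and Tnfrsf1b (82.4%, 91.1%), were among them. The 5 that reached neither threshold were Tnfrsf4, Tnfrsf11b, Tnfrsf14, Tnfrsf17 and Tnfrsf26. Receptors of this superfamily with other symbols are not counted here, and of these Cd27 was mostly methylated (63.9%, 51.0% MM). The TSS of Tnfrsf9, the 4-1BB receptor of activated T cells, lies 125 bp from that of Park7.

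Among the interleukin receptors and their modulators, 11 of 23 were mostly unmodified (47.8%, all genes 76.1%) and 3 mostly methylated (13.04%, close to the 12.4% of all genes). Il3ra (99.0%, 97.1% CC) and Il17rd (96.4%, 97.8%), known as an inhibitor of FGF signaling in the embryo, were highest. Il2rb (7.26%, 0% CC), a subunit of the receptors of Il2 and Il15 on lymphocytes, was lowest, and its 0 of 26 calls in replicate 2 allow up to 11.5%. Il15ra, another subunit of the Il15 receptor, stood at 82.9% and 91.5%. Of 5 measured CC chemokine receptors, 2 were mostly unmodified, Ccr9 (85.6%, 83.5%) and Ccr10 (62.2%, 64.1%), and 3 were mostly methylated, Ccr3, Ccr8 and Ccr7 (19.7%, 8.19%), the receptor of migrating lymphocytes and dendritic cells. The TSS of Ccr9 lies 446 bp from that of Slc6a20a. Of 3 measured CXC chemokine receptors, Cxcr4 (98.9%, 96.4%), the receptor of Cxcl12, was mostly unmodified and Cxcr2 (5.53%, 7.78%) of neutrophils mostly methylated. Cxcr5 (30.4%, 40.2%), the receptor of B-cell follicles, was neither.

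The replicates ordered the promoters much alike, with a Spearman rho of 0.926 between them over the 104 CC levels. Members just above the threshold, by the lower of their replicates, were Tnfsf11 (50.7%) and Il1rap (51.3%), and those just below were Cxcl3 (47.1%) and Il17b (46.3%). A further 44 members reached the minimum of sites in replicate 1 alone. Of these, 2 had at least 50% CC there and 33 had at least 50% MM, so the members with a level in both replicates were the less methylated ones. With replicate 1 alone, 52 of 148 promoters were mostly unmodified and 66 mostly methylated, and with replicate 2 alone 44 and 43 of 104 were.

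CpG density went along with the promoter class. The observed number of CpGs over that expected from the base composition was 0.234 at the median member promoter and 0.486 at the median of all genes. At a ratio of at least 0.6, 16 members had CpG-rich promoters and 143 had CpG-poor ones. CpG-rich promoters were those of 5 of 86 ligands and 11 of 73 receptors. Of the CpG-rich promoters, 15 of 16 were mostly unmodified, against 97.9% of all CpG-rich promoters. The remaining one, Il17ra, which encodes the receptor of Il17a, gave 56.8% CC over 26 sites and 10.5% over 6 sites. Of 88 measured CpG-poor promoters, 28 were mostly unmodified (31.8%) and 30 mostly methylated (34.1%), against 59.1% and 22.1% of all CpG-poor promoters. The class was not matched for density, since the median ratio of CpG-poor promoters was 0.219 for members and 0.279 for all genes. Over the members, the rho between CpG density and CC was 0.751 and 0.649, and over all genes it was 0.737 and 0.681.

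**Figure D2:**
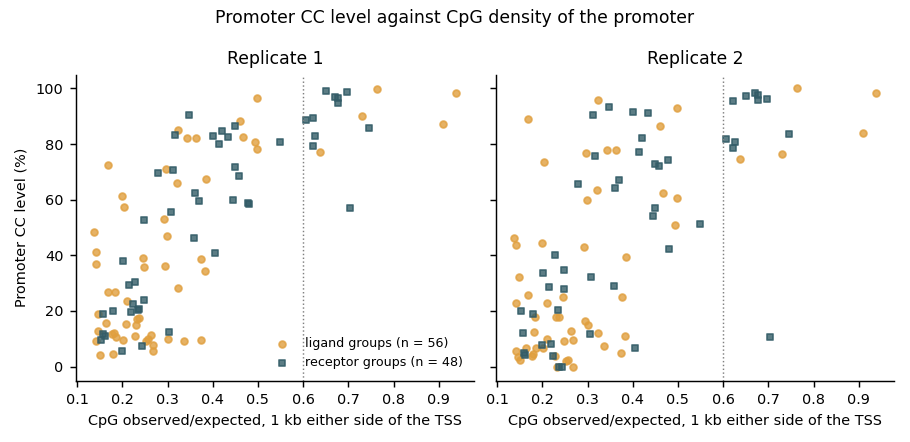
Promoter CC level (y axis, %) against the ratio of observed to expected CpGs within 1 kb of the TSS (x axis), with 1 panel for each replicate and a marker for ligand or receptor groups. The dotted line marks a ratio of 0.6. Points to its right lie high, apart from Il17ra, and points to its left cover the whole range.

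Around the TSS, CC was highest in the first 500 bp downstream. In this bin it reached 99.2% and 99.0% over the 16 CpG-rich members, against 99.1% and 98.5% over all CpG-rich genes. Over the CpG-poor members it reached 51.2% (861 sites) and 49.3% (310 sites), against 77.7% and 73.9% over all CpG-poor genes. Between 500 bp and 1 kb upstream, the CpG-poor members held 26.7% and 23.3%, and all CpG-poor genes held 43.9% and 40.1%. CC at the CpG-poor members was therefore raised next to the TSS, at a lower level than over all CpG-poor genes. Sites rather than genes have equal weight here, and the difference was not tested. The CpG-poor members were also sparser in CpGs than all CpG-poor genes, so density was not held equal.

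**Figure D3:**
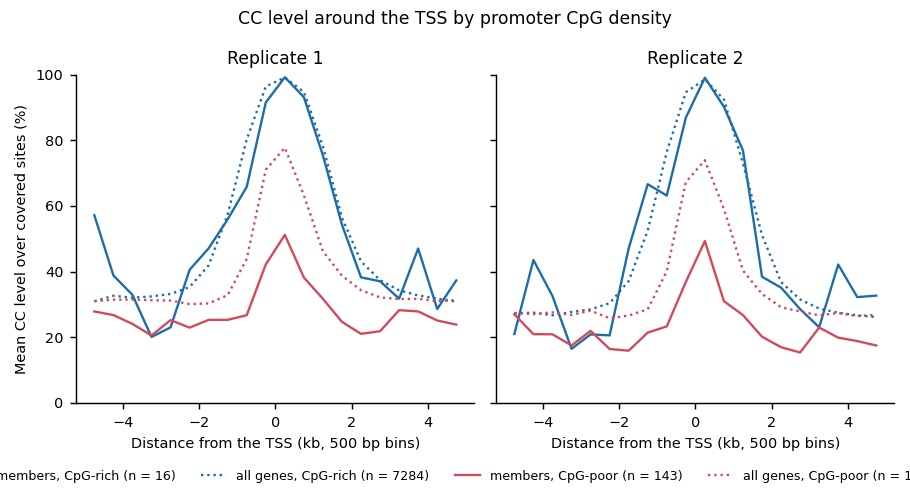
Mean CC level over covered CpG sites (y axis, %) by distance from the TSS (x axis, kb, bins of 500 bp), with 1 panel for each replicate. Lines show CpG-rich and CpG-poor promoters of the members (16 and 143 genes) and of all genes. The CpG-rich lines lie together next to the TSS, and the line of CpG-poor members peaks at 51.2% and 49.3%, below that of all CpG-poor genes.

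The TATA box is a core promoter element that sits a short distance upstream of the start of many inducible genes. The motif TATAAA was searched on the sense strand with its first base 40 to 20 bases upstream of the RefSeq start. It was found in 12 of 121 member promoters with a sequence (9.92%) and in 444 of 15687 promoters of all genes (2.83%). The 12 were Ccl8, Ccl12, Cxcl3, Cxcl15, Cxcr4, Il1a, Il1b, Il2, Il13, Il17a, Il17f and Tnfsf18, and the motif can be read near the end of the Il2 and Il17a sequences above. Of the 9 with a promoter level, 6 were mostly methylated (all genes 12.4%) and 1, Cxcr4, was mostly unmodified (all genes 76.1%). Of 68 measured members with a sequence but without the motif, 16 were mostly methylated and 31 mostly unmodified. Members without a sequence were left out, and a link between motif and class was not tested. A match of letters does not show that the element is used.

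Some members start next to another gene. Of the 11 with the TSS of another protein-coding gene within 1 kb, 10 had a promoter level and 9 of these were mostly unmodified, against 76.1% of all genes. Tnfsf12 and its read-through gene Tnfsfm13 were counted separately among them, each as the neighbor of the other. Il4i1 starts 271 bp from Atf5 and 299 bp from Nup62, Il17rb starts 127 bp from Chdh, and Il18 starts 354 bp from Bco2. Among the other 94 members, 34 were mostly unmodified and 30 mostly methylated. The unmodified sites of such promoters cannot be assigned to 1 of the genes.

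Gene bodies were compared with promoters within each replicate, by the limma moderated test over all genes with Benjamini-Hochberg adjustment. The SEs given here and below are those of this test, and they draw on the spread of other genes. CC was higher in the promoter than in the gene body for 35 of 61 members, against 84.2% of all genes. The median difference was 35.8 and 30.1 percentage points, against 62.5 and 62.3 over all genes. Over both replicates the median of the members went from 32.9 points to 54.0 with 2 times the minimum of sites, 53.0 with promoters of 500 bp either side, 6.15 without a minimum and 5.17 with the 2 kb upstream. Tnfrsf21 showed the largest difference, with 96.9% and 98.4% CC in the promoter and 25.5% and 22.2% in the gene body (mean difference 73.8 ± 3.23 points, SE, n = 2, adjusted p = 1.74e-07 by limma). Il15ra followed, with promoter levels of 82.9% and 91.5% over gene body levels of 17.5% and 11.8%.

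CC was lower in the promoter than in the body for 3 members, Ccr7, Il4 and Tnfsf18, and for 3.65% of all genes. In Ccr7 the promoter held 19.7% and 8.19% CC and the gene body 31.7% and 35.5% (difference -19.6 ± 6.0 points, SE, n = 2, adjusted p = 0.0140 by limma), with 5 promoter sites in replicate 2. Il4 held 10.1% and 2.38% in the promoter against 22.8% and 16.9% in the body, and Tnfsf18 held 5.79% and 0% against 21.4% and 10.8%. Il4 passed under each alternative that left it a level, whereas Ccr7 did not pass on the log-odds scale and Tnfsf18 did not pass with summed calls or without a minimum of sites. With at least 10 promoter sites, or with a promoter of 500 bp either side, none of the 3 had a level.

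The bodies of the members, unlike their promoters, were close to those of other genes. Median CC was 20.7% and 16.6% against 21.3% and 17.2% over all genes, and median MM was 56.8% and 61.8% against 55.7% and 60.6%. Median HC/CH, the state with hydroxymethylcytosine opposite an unmodified cytosine, was 4.73% and 3.83% against 5.20% and 4.33%. HM/MH was 4.06% and 2.72% against 4.31% and 2.72%, and MC/CM was 13.05% and 14.8% against 12.2% and 13.9%. The HM/MH values of the replicates cannot be compared directly, since of the calls on synthetic MM duplexes 2.26% were HM and another 2.26% MH in replicate 1, against 0.233% for each in replicate 2. After correction with these spike-ins, median HM/MH of the member bodies was 1.54% and 2.31%, against 1.69% and 2.35% over all genes.

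Single members did differ from the median gene in HC/CH. Relative to the median of all genes in the same replicate, HC/CH was higher in 15 of 88 member bodies (17.0%, all genes 20.6%) and lower in 23 (26.1%, all genes 19.7%). These counts depend on the test, because with a prior variance that has no trend on the number of sites 0 members passed in either direction, and 41 had an unadjusted p under 0.05. By the lower of its replicates, Tnfrsf1a, the main TNF receptor, was highest, at 9.44% and 9.01% over 191 and 57 sites (difference 4.46 ± 0.720 points, SE, n = 2, adjusted p = 8.58e-05 by limma). Ccr7 held 8.67% and 10.4% over 139 and 63 sites (4.80 ± 0.752 points, adjusted p = 6.31e-05). Tnfrsf1a spans chr6:125349362-125362484 and Ccr7 spans chr11:99144196-99155077 of GRCm38, and in both genes each replicate was above the median gene.

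TNF receptors were higher in 5 of 13 measured bodies (all genes 20.6%) and lower in 0 (all genes 19.7%), and the groups were not tested against each other. Besides Tnfrsf1a these were Tnfrsf8 (6.76%, 6.42%), which encodes CD30, Tnfrsf17 (9.68%, 5.94%), Tnfrsf19 (5.998%, 6.29%) and Tnfrsf21 (5.87%, 6.53%). The others that passed included Tnfsf11 (7.14%, 6.65%), Il17rd (6.90%, 6.56%), Il17d (6.58%, 6.75%), Il17rb (6.75%, 6.56%), Il6ra (6.41%, 7.07%) and Il34 (6.29%, 6.19%). Cxcl12 passed too, at 6.46% and 10.3%, although its replicate 2 level rests on 32 sites. Tnfrsf11a, the receptor of Tnfsf11, held 5.78% and 3.84% and did not pass.

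**Figure D4:**
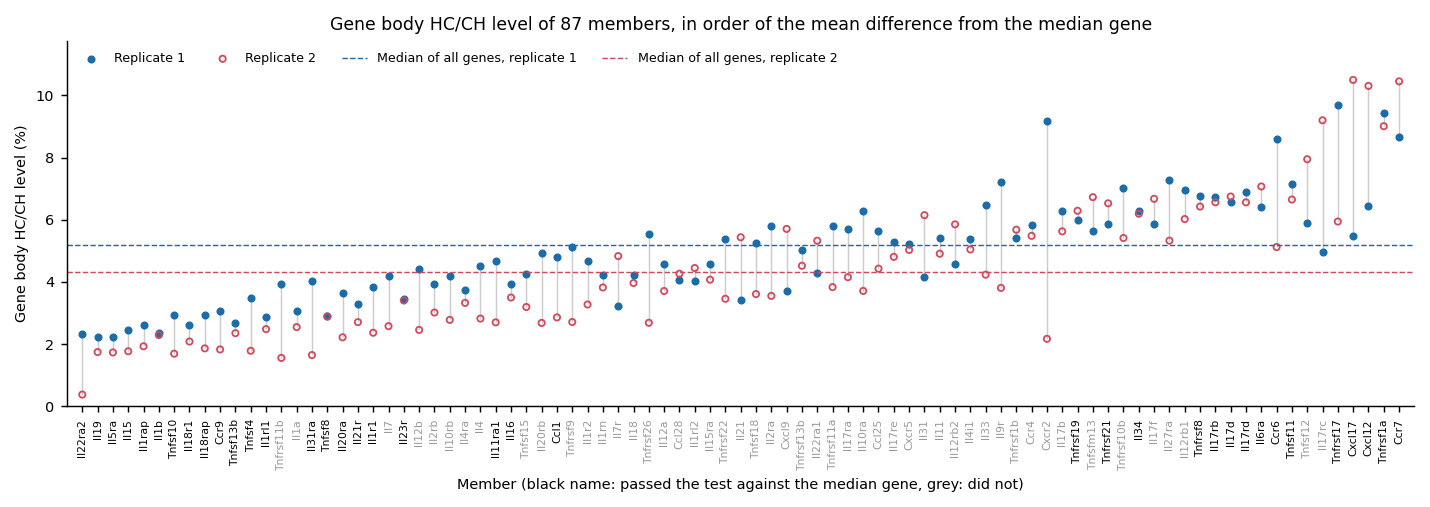
Gene body HC/CH level (y axis, %) of 87 members with a level, ranked along the x axis. Filled points are replicate 1, open points are replicate 2, dashed lines mark the median of all genes (5.20% and 4.33%), and a black name marks a member that passed the test. Il22ra2 (2.34%, 0.379%) lies at the low end, and Tnfrsf1a and Ccr7 lie at the high end at 8.67% or more in each replicate.

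Of 34 measured bodies of interleukin receptors, 12 were lower in HC/CH (all genes 19.7%) and 3 were higher (all genes 20.6%). The lower ones included Il1r1, Il1rl1, Il18r1 and Il18rap, which are neighbors in the same gene cluster, so the count is not one of separate loci. Low levels were those of Il22ra2 (2.34%, 0.379%), a soluble antagonist of Il22, Il19 (2.22%, 1.75%), Il5ra (2.24%, 1.73%), the receptor of the eosinophil cytokine Il5, and Il1b (2.34%, 2.29%). Il1rap, the shared accessory chain of the Il1 family receptors, had the smallest adjusted p of the lower members, at 2.62% and 1.93% over 715 and 229 sites (-2.49 ± 0.356 points, SE, n = 2, adjusted p = 2.30e-05 by limma). Tnfsf10 (2.95%, 1.69%) and Il15 (2.46%, 1.77%) were lower as well. Il11ra1 was lower (-1.08 ± 0.343 points), but 28.2% of its body sites lie within 1 kb of the TSS of another gene, and without such sites the difference was 0.0989 points.

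For HM/MH, 0 of 88 member bodies were higher than the median gene (all genes 3.38%) and 2 were lower (all genes 2.67%), with 10 members at an unadjusted p under 0.05 in the limma test. The lower ones were Ccr9 (2.78%, 1.15%), the receptor of Ccl25, and Il11ra1 (2.86%, 1.86%). Neither passed with a prior variance without a trend, and Il11ra1 passed under only 3 of 10 alternatives. By the lower replicate, the highest levels were those of Tnfrsf1a (5.10%, 5.31%), Ccr4 (5.05%, 5.57%), Il27ra (6.73%, 4.78%), Cxcr2 (4.71%, 6.57%) and Tnfrsf17 (6.53%, 4.49%), none of which passed. This order uses uncorrected levels, and miscall rates differed between the replicates, so it is uncertain. After the spike-in correction 5 members were higher, so the count of 0 depends on the miscall rates.

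Hemimethylation, MC/CM, was higher than in the median gene in 29 of 88 member bodies (33.0%, all genes 24.2%) and lower in 17 (19.3%, all genes 23.5%). Of 34 interleukin receptors 17 were higher and 4 lower, and the higher ones included the neighbors Il1r1, Il1r2, Il1rl1, Il18r1 and Il18rap. Of 9 TNF superfamily ligands 5 were higher and 2 lower. These 2 were Tnfsf12 and its read-through gene Tnfsfm13, so 1 locus is counted under 2 names. By the lower replicate, the highest were Tnfsf18 (17.9%, 20.6%), Tnfsf10 (17.7%, 20.1%), Il1rn (17.4%, 21.1%), Il20ra (17.3%, 17.5%) and Il23r (17.4%, 17.1%), the Il23 receptor of Th17 cells. Il7 had the smallest adjusted p of the higher members, with 17.0% and 22.3% over 212 and 86 sites (6.59 ± 1.01 points, SE, n = 2, adjusted p = 9.37e-10 by limma). Its differences in the replicates were 4.79 and 8.40 points. The SE in this fit followed the number of sites over all genes, so Il15ra had the same one. It does not measure the spread of Il7 itself.

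Bodies with less MC/CM than the median gene included Tnfsfm13 (7.89%, 4.28%), Il4i1 (5.98%, 6.58%), Il17d (6.32%, 8.08%) and Tnfrsf1a (6.31%, 9.93%). Of the 88 members, 5 (5.68%, all genes 9.93%) had higher HC/CH and lower MC/CM, namely Tnfrsf1a, Ccr7, Il17d, Il17rd and Il34. Another 16 (18.2%, all genes 12.96%) had lower HC/CH and higher MC/CM, among them Tnfsf10, Il23r, Il5ra, Il1rap and Il22ra2. Il11ra1 was lower in both states (1 member, all genes 1.26%), though its lower HC/CH was lost without sites near TSSs. In both states 0 members were higher (all genes 0.466%). Both states are shares of the same calls, so they are not independent measures. Across the 88 member bodies HC/CH went with CC (Spearman rho 0.524 and 0.494, all genes 0.370 and 0.386), and MC/CM went against it (-0.692 and -0.714, all genes -0.770 and -0.662).

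**Figure D5:**
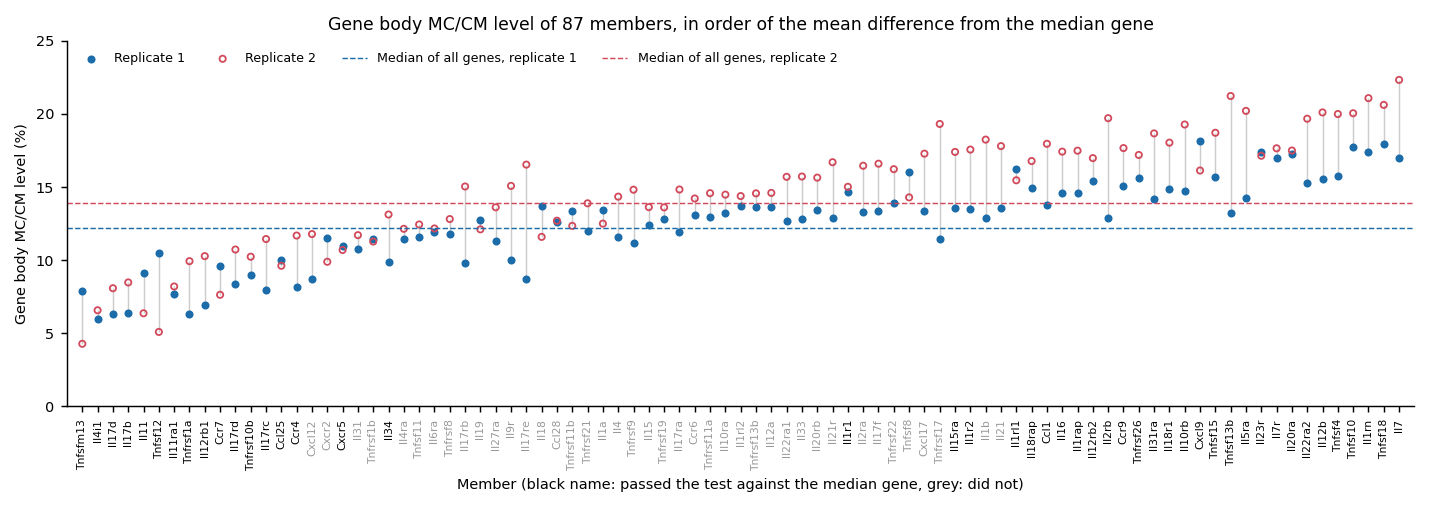
Gene body MC/CM level (y axis, %) of 87 members with a level, ranked along the x axis, with filled points for replicate 1, open points for replicate 2 and dashed lines at the median of all genes (12.2% and 13.9%). A black name marks a member that passed the test. Levels run from 4.28% in Tnfsfm13 to 22.3% in Il7.

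Within genes, exons and introns were compared in HC/CH for 71 members. Exons were higher in 3 (4.23%, all genes 2.95%) and lower in 1 (1.41%, all genes 0.832%), by the same limma test. Il17f, a relative of Il17a, held 9.16% and 14.8% in exons and 4.84% and 4.67% in introns (difference 7.24 ± 1.77 points, SE, n = 2, adjusted p = 0.00397), over 28 and 11 exon sites. Il6ra held 8.53% and 10.9% against 5.59% and 5.47%, over 113 and 46 exon sites. Il22ra1 held 5.13% and 13.2% against 4.06% and 3.81%, so that the replicates differed more in size than in direction. Tnfsfm13 was the member with lower exons (1.68%, 3.56% against 7.06%, 8.36%). None of the 4 calls held under every alternative. Il6ra passed under 4 of 8, Il17f under 3 of 8, Il22ra1 under 2 of 8 and Tnfsfm13 under 0 of 7.

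Many members lie in clusters, and 8 stretches held at least 4 members with gaps of at most 250 kb. Over all covered sites from the first to the last gene, 6 of these are described here. CC was lowest in the Il10 cluster of chromosome 1 (Il24, Il20, Il19, Il10), at 9.74% and 6.77%, and this cluster held the most MM of the 6, 67.4% and 72.3%. CC was 16.6% and 13.9% in the cluster of Il1 family receptors on chromosome 1 (Il1r2 to Il18rap) and 17.2% and 11.05% in the Cxcl5 to Cxcl2 cluster of chromosome 5. The Il1f8 to Il1rn cluster of chromosome 2 holds ligands and antagonists of the Il1 family. HC/CH ran from 2.55% and 1.85% there to higher levels on chromosome 11. These were 4.30% and 2.80% in the Ccl2 to Ccl1 cluster and 4.23% and 3.16% in the Ccl5 to Ccl4 cluster. MC/CM was highest of the 6 in the Il1f8 to Il1rn cluster (16.8%, 21.1%). Clusters share their position and their reads, and no test was made between them.

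Sense and antisense strands carried the modified cytosine about equally often. In the 88 gene bodies with a level, the modified cytosine was on the sense strand in 49.7% of HC/CH calls in replicate 1 (4999 sense and 5053 antisense calls, exact 95% interval 48.7% to 50.7%) and in 49.6% in replicate 2 (interval 47.4% to 51.7%). For MC/CM the sense share was 49.6% (interval 49.0% to 50.2%) and 49.7% (interval 48.5% to 50.8%). For HM/MH the hydroxymethylated cytosine was on the sense strand in 49.8% and 50.3% of calls. The intervals cover counting error only.

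Related genes outside the symbol rule were counted for comparison. Some, such as Tnf, Fasl, Fas and Cd27, belong to the TNF families under other symbols, and others act with these families. Of 44 measured promoters of this list, 28 were mostly unmodified (all genes 76.1%) and 7 mostly methylated (all genes 12.4%). The unmodified ones included the signal transducers Rel (99.0%, 97.0% CC) and Map3k7 (98.4%, 97.8%) of the NF-κB pathway and the kinase Tyk2 (95.3%, 95.5%). The ligands of this list varied, with Csf1, the growth factor of macrophages, at 70.9% and 51.7%, Tnf at 39.7% and 29.3%, and Fasl, the death ligand of Fas, at 29.4% and 14.4%. Among atypical chemokine receptors, Ackr3 (95.1%, 84.9%), which binds Cxcl12 like Cxcr4 does, was mostly unmodified, and Ackr1, Ackr2 and Ackr4 were mostly methylated. In the 40 measured bodies of these genes, HC/CH was higher than in the median gene in 8 (all genes 20.6%) and lower in 1 (19.7%), and MC/CM was higher in 11 (24.2%) and lower in 13 (23.5%).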

How the data were processed

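E14 mESCs were measured by SCoTCH-seq in 2 replicates, which the study describes as different passages. The authors filtered read pairs with cutadapt 4.6, aligned them to GRCm38 with BSBolt, marked duplicates with Picard 3.1.1 and called a state at each CpG that a read pair covered. The deposited files list, per site, the count of each of the 9 CpG states, with the depth of the site and the percentage that the count makes of it. The deposited counts and percentages hold only sites with at least 5 calls outside blacklisted regions, filtered separately in each replicate, and were not corrected with the spike-ins. All 13366464 and 4882356 autosomal sites lay on the C of a CpG of GRCm38.p6. Replicate 1 had a mean of 10.6 calls per site and replicate 2 had 6.37, so single sites are coarse and levels are given for regions only. Of the reference CpGs in member promoters, 55.1% and 19.4% were covered, and in member gene bodies 72.7% and 26.9%. Replicate 2 thus sets which members have a level.

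Sites were assigned to promoters, exons, introns and gene bodies of GENCODE vM21, and the per-site percentages were averaged. Differences between regions of a gene, or between a gene and the median gene, were taken within each replicate. They were tested over all genes with the moderated test of limma 3.58.1 (R 4.3.3), with a prior variance that followed the number of sites, Benjamini-Hochberg adjustment and a threshold of 0.05. The variance of a gene was drawn toward that of genes with a like number of sites. For HM/MH and MC/CM it followed this trend alone, so that Il7 and Il15ra had the same SE. Such p-values rest on the spread between 2 libraries over many genes, and not on that of the member. They cover no other variation. With 2 replicates of 1 condition there was no test between samples, as an exact sign-flip over 2 replicates cannot go below p = 0.5. Other steps used Python 3.11.15, NumPy 2.4.6, pandas 2.3.3, SciPy 1.17.1 and Matplotlib 3.10.9. Promoter sequences of 121 members came from RefSeq on GRCm38.p6, and 38 members had none.

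The members, the gene lists and the printed sequences were chosen with earlier results of these data known. Members were named as the 8 highest and 8 lowest by promoter CC, the 8 highest and 5 lowest by gene body HC/CH, the 5 highest by HM/MH and by MC/CM, ranked on the less extreme replicate, and as well-known genes of each family. Others were named after their values were seen, and 1 member is counted but not reported here by name. The alternatives were summed calls, sites covered in both replicates, spike-in correction, other minimums of sites and calls, other promoter widths, a class threshold of 70%, log-odds with 0.5 added, no trend of the prior variance, and each replicate alone. Leaving out sites within 1 kb of any TSS, and members with another TSS within 1 kb, was added after the data were seen.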

Additional observations from a re-analysis of the deposited data

How the results depend on the processing

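Against 30 of 104 promoters, MM reached the threshold in 8 of 43 with 2 times the minimum of sites, 59 of 148 without a minimum, 11 of 53 with promoters of 500 bp either side and 9 at a threshold of 70%. In the first 3 of these settings CC reached it in 30 of 43, 44 of 148 and 31 of 53, against 43 of 104. Mostly unmodified promoters numbered 20 of 91 when the promoter was taken as the 2 kb upstream. Each replicate alone gave 44 to 52 mostly unmodified and 43 to 66 mostly methylated promoters. The median promoter CC level, 40.5% over both replicates, became 74.7%, 23.9%, 75.2% and 26.9% with 2 times the minimum, no minimum, 500 bp and 2 kb upstream, and MM, 37.3%, became 14.4%, 49.2%, 13.7% and 47.9%. Each replicate alone gave 34.3% to 46.7% CC and 32.6% to 42.0% MM.

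For promoter minus gene body CC (35 higher, 3 lower, median 32.9 points), sites covered in both replicates gave 8 lower and a median of 25.9. The doubled minimum of sites gave 23 higher of 23, 0 lower and 54.0. No minimum gave 6 lower and 6.15, promoters of 500 bp gave 0 lower and 53.0, and 2 kb upstream gave 21 higher, 6 lower and 5.17. In the last, the sign turned for Il7 (-1.65), Il18 (-9.01), Tnfsfm13 (-14.7) and Tnfsf11 (-9.45). Each replicate alone gave a median of 30.1 to 35.8.

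For gene body HC/CH (15 higher, 23 lower), the prior without a trend gave 0 and 0 (41 members at an unadjusted p under 0.05), no minimum gave 13 lower, and log-odds gave 9 higher. Il11ra1 turned to 0.0989 points without sites near TSSs. For HM/MH (0 higher, 2 lower), 2 were higher with summed calls and without a minimum, 5 with the spike-in correction, 1 with 500 bp and 3 with 2 kb upstream. There was 1 lower with no minimum, log-odds, 500 bp, 2 kb upstream and without sites near TSSs, and 0 without the trend, where 11 members had an unadjusted p under 0.05. Median HM/MH became 1.92% after correction, from 3.39%. MC/CM kept at least 18 of 29 higher calls in number, the lowest without the trend. For exons minus introns (3 higher, 1 lower), there were 0 and 0 without the trend, with summed calls, without a minimum and on log-odds, where 17, 12, 14 and 11 members had an unadjusted p under 0.05. There were 1 and 0 with sites in both replicates, and 0 lower with the spike-in correction, the doubled minimum and without sites near TSSs. The cause was not tested.

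Calls held under every alternative that left a level in 26 of 38 members for promoter minus gene body CC, 24 of 46 for MC/CM, and 0 of 38 for HC/CH, of which 21 were lost only without the trend. At least 10 calls per site left at most 1 member with a level, so this alternative was not run. Leaving out a replicate leaves 0 residual degrees of freedom, so only values are given. No paired analysis was possible because both replicates belong to 1 group, and differences between regions were already taken within each replicate. Replicate 2 covered 19.4% of member promoter CpGs, which limits all promoter results.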

Other observations

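Autosomal genes alone were compared above, and 6 genes that match the same symbols lie on the X chromosome, Il13ra1, Il13ra2, Il1rapl1, Il1rapl2, Il2rg and Cxcr3. Their promoters reached the minimum of sites in replicate 1 only. There, promoter CC was 78.3% at Il1rapl2, 70% at Il13ra1, 61.0% at Il1rapl1, 52.2% at Il2rg, which encodes the common gamma chain of several interleukin receptors, 30.0% at Cxcr3, the receptor of Cxcl9 and Cxcl10, and 28.0% at Il13ra2. The long gene body of Il1rapl1, a synaptic relative of the Il1 receptors, held 2.07% HC/CH in replicate 1 (2073 sites) and 0.959% in replicate 2 (207 sites).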
